A study of Arabidopsis thaliana with 8 samples.

Results

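A set of 44 nuclear genes that encode the photosynthetic apparatus was followed in imbibed seeds of Arabidopsis thaliana. The genes were taken by locus identifier, as a set named with earlier results of these data known, from a table of 33279 genes. They comprised 12 LHCB and 4 LHCA genes for the light-harvesting antennae of photosystems II and I, 9 PSB genes for photosystem II, 11 PSA genes for photosystem I, 3 genes for electron carriers (PETC, PETE1 and PETE2), and 5 genes for Rubisco (4 RBCS genes for its small subunit, and RCA for its activase).

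Photosynthesis in plants is built from proteins of both genomes: the plastid genome encodes most reaction centre proteins and the large subunit of Rubisco, and the nucleus encodes the antenna proteins, many peripheral subunits and the small subunit of Rubisco. In leaves the LHCB1 and RBCS genes are among the most abundant nuclear transcripts, and they are induced by light. In seeds, plastids lose most of their thylakoids during maturation and rebuild them in the seedling, so the nuclear photosynthesis genes are usually low in a dry or freshly imbibed seed.

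The mutant line serk1-1 was set against its background ecotype Columbia (Col-0). The line is named after SERK1, a receptor kinase gene. Whole seeds of both genotypes were kept in liquid Murashige and Skoog medium of reduced strength, with or without 200 mM NaCl, and total RNA was taken at 24 h of imbibition. The 4 groups were serk1-1 with NaCl, serk1-1 without NaCl, Col-0 with NaCl and Col-0 without NaCl, each with 2 libraries that the labels call biological replicates, and p-values measure the spread between these libraries. The genotype was read from the genotype label, because the words "wild type" also stand in the titles of serk1-1 samples; nothing used here states the kind of mutation, the age of the seed lots or the light conditions. The values are FPKM (fragments per kilobase of transcript, scaled to the mapped fragments of the library), which allow for gene length, so that levels of different genes may be set side by side. Whole seeds were extracted, so fewer cells of a type and less RNA per cell cannot be told apart.

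Several features of the libraries bear on the comparisons below. SERK1 (AT1G71830) had 1.12 and 1.05 FPKM in serk1-1 with NaCl, 1.53 and 1.4 FPKM in serk1-1 without NaCl, 2.40 and 1.06 FPKM in Col-0 with NaCl, and 2.70 and 1.59 FPKM in Col-0 without NaCl. The genotypes overlap at these low levels, so the transcript gave no check of the labels. Of 13 markers of seed reserves (cruciferins, albumins, oleosins and the EM proteins), 11 were higher in serk1-1 than in Col-0, and none lower. Together they made up 3.83 to 8.27% of all FPKM in serk1-1 libraries and 0.795 to 2.47% in Col-0 libraries. Replicate 2 had the higher share of these markers in every group.

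The promoters of 5 members are shown because these genes carry the main genotype or salt comparison and their windows hold no part of another annotated gene. Each is the 250 bases before the annotated gene start, from RefSeq on build TAIR10.1, read 5′ to 3′ on the strand of the gene. Capitals mark a match to a G-box (CACGTG), an I-box (GATAAG), an RY element (CATGCA) or a TATA element (TATAAA) on either strand. RBCS1A (AT1G67090) lies on the minus strand with its window at chr1:25049668-25049917, PETC (AT4G03280) on the plus strand at chr4:1439896-1440145, LHCB4.1 (AT5G01530) on the plus strand at chr5:208616-208865, PSBR (AT1G79040) on the plus strand at chr1:29735702-29735951, and RBCS3B (AT5G38410) on the minus strand at chr5:15378643-15378892.
RBCS1A: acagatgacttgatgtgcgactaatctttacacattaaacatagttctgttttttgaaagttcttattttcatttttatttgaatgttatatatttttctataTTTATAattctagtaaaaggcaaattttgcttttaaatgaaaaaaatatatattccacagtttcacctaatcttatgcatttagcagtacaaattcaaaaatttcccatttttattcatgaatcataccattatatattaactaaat
PETC: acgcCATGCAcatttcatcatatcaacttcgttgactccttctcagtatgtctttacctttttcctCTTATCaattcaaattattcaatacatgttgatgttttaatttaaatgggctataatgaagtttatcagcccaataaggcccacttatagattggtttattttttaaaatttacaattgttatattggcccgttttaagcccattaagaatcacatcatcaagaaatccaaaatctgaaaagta
LHCB4.1: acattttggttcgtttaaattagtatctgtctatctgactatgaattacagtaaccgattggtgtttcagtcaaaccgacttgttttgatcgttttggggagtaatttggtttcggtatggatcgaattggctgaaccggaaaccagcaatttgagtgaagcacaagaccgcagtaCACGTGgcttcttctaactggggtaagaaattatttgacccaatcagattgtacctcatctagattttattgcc
PSBR: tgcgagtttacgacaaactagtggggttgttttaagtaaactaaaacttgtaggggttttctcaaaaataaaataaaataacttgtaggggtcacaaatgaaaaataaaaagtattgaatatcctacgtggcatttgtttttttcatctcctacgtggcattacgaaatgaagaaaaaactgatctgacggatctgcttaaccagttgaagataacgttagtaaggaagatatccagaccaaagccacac
RBCS3B: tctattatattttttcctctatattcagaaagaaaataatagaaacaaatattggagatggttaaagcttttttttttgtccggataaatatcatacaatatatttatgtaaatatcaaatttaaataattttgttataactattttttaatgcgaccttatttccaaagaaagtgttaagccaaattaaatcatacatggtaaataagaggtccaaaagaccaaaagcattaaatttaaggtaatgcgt
The RBCS1A window held a TATA element whose 5′ base lay 147 bases before the gene start. PETC held an I-box at 184 bases and an RY element at 246 bases, and LHCB4.1 held a G-box at 74 bases. None of the 4 motifs was found in the windows of PSBR and RBCS3B. Over all 44 members, the G-box was found in 8 windows (18.2%, against 6.49% of 27443 protein-coding genes), the I-box in 13 (29.5%, against 12.3%), the RY element in 6 (13.6%, against 8.43%) and the TATA element in 19 (43.2%, against 47.3%). Of the 23 members that could be tested for a difference, 3 had a G-box (13.0%), 6 an I-box (26.1%), 2 an RY element (8.7%) and 10 a TATA element (43.5%). Over 14919 tested protein-coding genes the shares were 8.11%, 12.5%, 6.96% and 44.9%, in that order. Among the 6 members that were higher in serk1-1, described below, 1 had a G-box (LHCB4.1), 2 an I-box (LHCB4.2 and PETC), 1 an RY element (PETC) and 3 a TATA element (LHCB4.2, PSBP1 and RBCS1A). A match describes the letters only, and the windows rest on the annotated starts.

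The 44 genes were mostly quiet at 24 h. In 20 of them the level stayed below 1 FPKM in all 8 libraries, 23 reached 1 FPKM in at least 2 libraries and could be tested, and 7 averaged at least 10 FPKM over the libraries (RBCS1A, LHCB4.1, PSBP1, PSBR, PETC, LHCB4.2 and PSBX). Several genes of the LHCB1, LHCB2 and RBCS families were among the quiet ones. LHCB1.1, LHCB1.4, LHCB2.1 and RBCS1B did not exceed 0.05 FPKM in any library, and LHCB2.2 was listed at 0 in all 8. Not all copies were quiet: RBCS1A had the highest level of the 44 genes in every library, and LHCB1.3 reached 2.91 FPKM. Within gene families a single copy usually held most of the FPKM. RBCS1A made up 98.6 to 99.3% of the summed FPKM of the 4 RBCS genes in serk1-1 libraries and 91.4 to 98.5% in Col-0 libraries. PETE2 held 96.1 to 100% of the plastocyanin pair and PSBQ1 78.6 to 100% of the PSBQ pair over the 8 libraries, whereas PSAD1 held only 11.6 to 23.8% of the PSAD pair. LHCB1.1 to LHCB1.3 and RBCS1B to RBCS3B are near-identical neighbours, so the split of reads among them is uncertain.

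**Figure D1:**
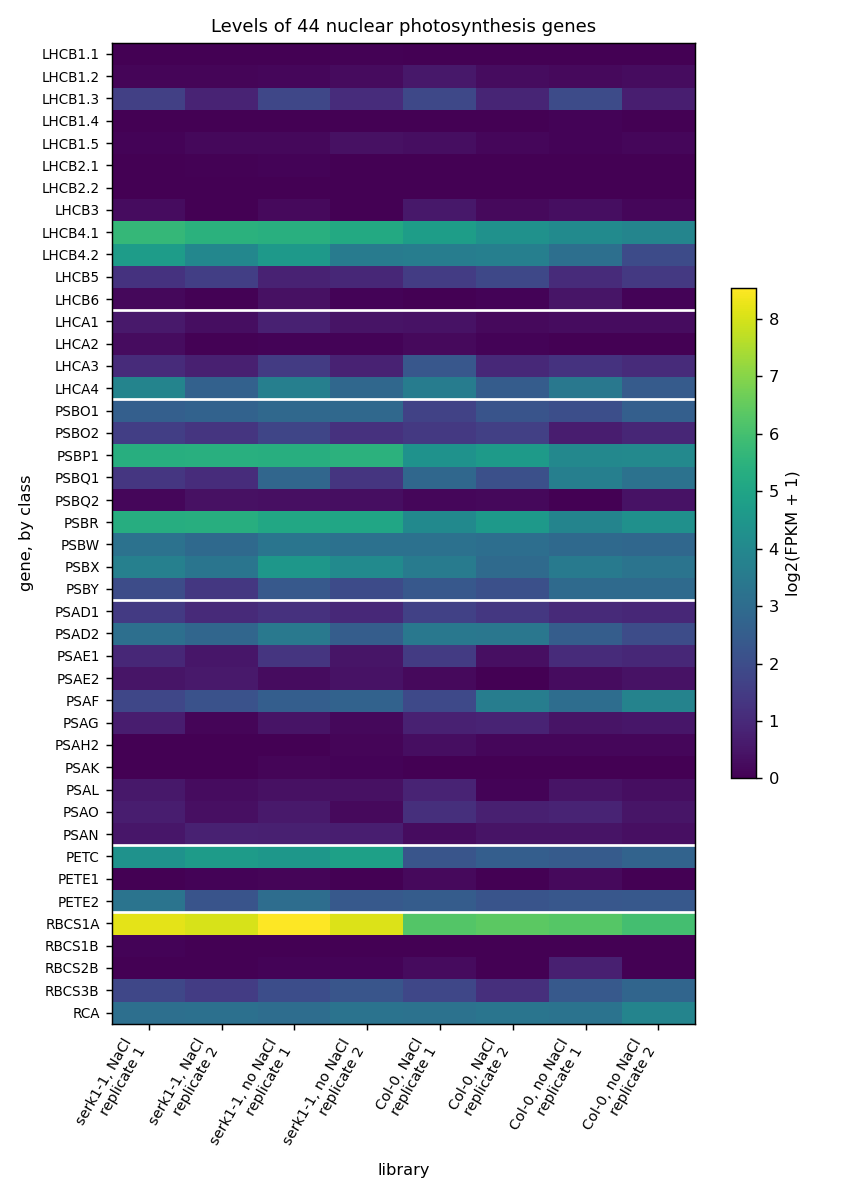
Levels of the 44 genes in each library, as log2(FPKM + 1) on the colour scale, with genes in rows by class (white lines part the classes) and libraries in columns. RBCS1A is the brightest row, with 260.3 to 370.5 FPKM in the serk1-1 libraries and 62.3 to 82.7 FPKM in the Col-0 libraries, and most LHCB1, LHCB2 and photosystem I rows are dark throughout.

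Summed over the 44 genes, the level was 551.6 and 484.4 FPKM in serk1-1 with NaCl, 636.7 and 499.7 FPKM in serk1-1 without NaCl, 240.3 and 240.3 FPKM in Col-0 with NaCl, and 222.6 and 206.4 FPKM in Col-0 without NaCl. All 4 serk1-1 libraries lay above all 4 Col-0 libraries. The sum was 0.0547 to 0.0714% of all FPKM in serk1-1 and 0.0259 to 0.0293% in Col-0. RBCS1A alone supplied 53.0 to 58.2% of the sum in serk1-1 libraries and 30.2 to 34.6% in Col-0 libraries. Without the LHCB1 and RBCS genes the sums were 221.1 to 260.3 FPKM in serk1-1 and 137.2 to 159.7 FPKM in Col-0. Those sums still held PETC, LHCB4.1, LHCB4.2, PSBP1 and PSBR, called higher in serk1-1 as described below, and so do not show a rise of the whole set. The photosystem I genes summed to 12.7 to 19.6 FPKM in serk1-1 and 16.3 to 24.6 FPKM in Col-0, ranges that overlap.

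**Figure D2:**
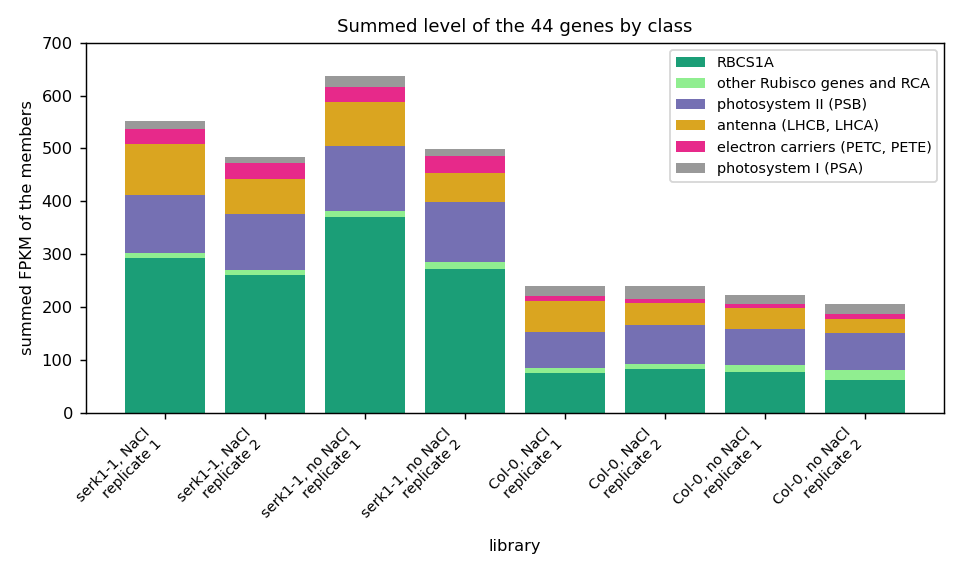
Summed FPKM of the 44 genes in each library, stacked by class with RBCS1A apart from the other Rubisco genes; each bar is 1 library. The serk1-1 bars reach 484 to 637 FPKM and the Col-0 bars 206 to 240 FPKM, and RBCS1A is the largest segment of each bar in serk1-1.

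The comparison of genotypes asks how seeds of serk1-1 differ from Col-0 seeds on the same medium. Averaged over the media, 6 members were higher in serk1-1 (RBCS1A, PETC, LHCB4.1, PSBP1, PSBR and LHCB4.2), 1 was lower (PSBQ1), and 16 of the 23 tested did not pass. Among all 15336 genes tested, 11.9% were called higher and 18.9% lower (limma, adjusted p below 0.05), which is 30.8% in either direction. An unadjusted limma p below 0.05 was found for 10 of the 23 members (43.5%), near the 44.3% of all genes tested. The median difference (serk1-1 minus Col-0 throughout, on the log2(FPKM + 1) scale) was 0.15 for the 23 members and -0.19 for all genes tested. The balance of calls depended on scaling: with median-of-ratios scaling 2563 genes were higher and 2273 lower, instead of 1825 higher and 2897 lower, and 8 members were higher and 1 lower. Markers of seed reserves and endosperm differed by genotype too. The 13 reserve markers summed to 34115 to 73213 FPKM in serk1-1 and 6184 to 20268 FPKM in Col-0. The 4 endosperm markers summed to 1438 to 2165 FPKM in serk1-1 and 228 to 405 FPKM in Col-0. Most of this was EPR1, with 1355 to 1989 FPKM in serk1-1 and 177 to 250 FPKM in Col-0. EPR1 and MFT were higher, and ZOU was listed at 0 in all but 1 library. CP1 was lower, with 0.64 to 4.32 FPKM in serk1-1 and 29.1 to 87.3 FPKM in Col-0. Of 4 seed coat markers BAN, TT10 and GPAT5 were listed at 0 in all 8 libraries and TT12 in all but 1. The part of these markers in the photosynthesis genes' differences was not tested.

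Among the antenna genes, LHCB4.1 encodes a minor antenna protein that joins the trimeric antenna to the photosystem II core. Its level was 50.1 and 43.0 FPKM in serk1-1 with NaCl, 40.9 and 35.25 FPKM in serk1-1 without NaCl, 25.9 and 18.75 FPKM in Col-0 with NaCl, and 15.9 and 13.9 FPKM in Col-0 without NaCl. Every serk1-1 library exceeded every Col-0 library, and the averaged difference was 1.17 ± 0.15 (SE, adjusted p = 0.00303). Its paralog LHCB4.2 had 25.5 and 14.35 FPKM in serk1-1 with NaCl, 23.6 and 10.8 FPKM in serk1-1 without NaCl, 11.3 and 11.7 FPKM in Col-0 with NaCl, and 7.75 and 2.83 FPKM in Col-0 without NaCl. The genotypes overlapped for LHCB4.2, and its difference of 1.12 ± 0.35 only just passed (adjusted p = 0.0463). The call was lost with no filter (adjusted p = 0.0914) and on leaving out any single library other than serk1-1 without NaCl replicate 2 and Col-0 without NaCl replicate 1, and adjusted p ran from 0.00333 to 0.119 over the alternatives. Its 3′ end overlaps the neighbouring gene AT3G08943. LHCB4.1 held 61.5 to 83.1% of the summed FPKM of the pair.

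Other antenna genes showed no call. LHCA4, an antenna protein of photosystem I, was the most abundant of them, with 13.5 and 5.26 FPKM in serk1-1 with NaCl, 12 and 6.21 FPKM in serk1-1 without NaCl, 11.04 and 4.65 FPKM in Col-0 with NaCl, and 9.68 and 4.49 FPKM in Col-0 without NaCl. Replicate 1 was above replicate 2 in each group by more than the genotypes differed (0.27 ± 0.41, adjusted p = 0.627). LHCB1.3, a subunit of the trimeric antenna, ranged from 0.81 to 2.52 FPKM in serk1-1 and from 0.65 to 2.91 FPKM in Col-0, and its difference was -0.01 ± 0.38 (adjusted p = 0.991). The values for LHCB5, a minor antenna protein, and LHCA3 were -0.31 ± 0.20 (adjusted p = 0.273) and -0.38 ± 0.33 (adjusted p = 0.401).

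Of the photosystem II genes, PSBP1 and PSBR were higher in serk1-1 and PSBQ1 was lower. PSBP1 encodes an extrinsic protein of the oxygen-evolving complex. Its level was 40.1 and 40.65 FPKM in serk1-1 with NaCl, 40.3 and 44.3 FPKM in serk1-1 without NaCl, 19.2 and 23.9 FPKM in Col-0 with NaCl, and 14.8 and 15.1 FPKM in Col-0 without NaCl. These 4 serk1-1 values lay close together and above all Col-0 values, with a difference of 1.16 ± 0.13 (adjusted p = 0.00193). PSBR, a small subunit associated with the same complex, had 38.5 and 39.9 FPKM in serk1-1 with NaCl, 33.4 and 32.4 FPKM in serk1-1 without NaCl, 15.65 and 23.4 FPKM in Col-0 with NaCl, and 13.5 and 18.7 FPKM in Col-0 without NaCl. No library of one genotype reached those of the other, and the difference was 1.00 ± 0.17 (adjusted p = 0.00685). PSBP1 overlaps AT1G06670 and AT1G06690 and PSBR overlaps AT1G79050 at gene ends. AT1G06670 lies on the same strand as PSBP1, so a strand setting would not part their reads. AT1G06690 and AT1G79050 lie on the opposite strand, but the strand setting is not given. Reads in these stretches therefore cannot be assigned.

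PSBQ1, another extrinsic protein of this complex, was lower in serk1-1. Its level was 1.57 and 1.14 FPKM in serk1-1 with NaCl, 6.03 and 1.51 FPKM in serk1-1 without NaCl, 6.20 and 3.25 FPKM in Col-0 with NaCl, and 11.9 and 8.32 FPKM in Col-0 without NaCl. Replicate 1 of serk1-1 without NaCl overlapped the Col-0 range, and the difference was -1.31 ± 0.36 (adjusted p = 0.0301). This call was lost with no filter (adjusted p = 0.0684) and on leaving out any single library other than serk1-1 without NaCl replicate 1 and Col-0 with NaCl replicate 2, and adjusted p ran from 0.00177 to 0.0975 over the alternatives. The remaining 5 tested photosystem II genes did not pass. PSBO1 and PSBO2, which encode the manganese-stabilising protein of the oxygen-evolving complex, had differences of 0.62 ± 0.21 (adjusted p = 0.0602) and 0.31 ± 0.21 (adjusted p = 0.297). The small membrane subunits PSBX, PSBW and PSBY had differences of 0.60 ± 0.21 (adjusted p = 0.0642), 0.15 ± 0.16 (adjusted p = 0.471) and -0.66 ± 0.21 (adjusted p = 0.0528).

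None of the 4 tested photosystem I genes passed, and none had an unadjusted p below 0.05. PSAF, a subunit on the plastocyanin side, had 2.56 and 3.47 FPKM in serk1-1 with NaCl, 4.81 and 5.41 FPKM in serk1-1 without NaCl, 2.70 and 11.2 FPKM in Col-0 with NaCl, and 7.23 and 13.2 FPKM in Col-0 without NaCl. The Col-0 replicates with NaCl lay far apart, and the difference was -0.79 ± 0.38 (adjusted p = 0.152). PSAD2, a stromal subunit near the ferredoxin site, differed by 0.15 ± 0.25 (adjusted p = 0.678). PSAD1 and PSAE1, also stromal subunits, differed by -0.08 ± 0.20 and -0.15 ± 0.32 (adjusted p = 0.788 and 0.752).

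PETC, the Rieske iron-sulfur protein of the cytochrome complex between the photosystems, had the largest averaged difference of the 23 tested genes. Its level was 19.6 and 24.9 FPKM in serk1-1 with NaCl, 21.7 and 27.85 FPKM in serk1-1 without NaCl, 3.81 and 4.92 FPKM in Col-0 with NaCl, and 4.41 and 5.65 FPKM in Col-0 without NaCl. The lowest serk1-1 library was far above the highest Col-0 library. The difference was 2.1 ± 0.18 (adjusted p = 9.29e-04), and the mean FPKM was 5.01 times as high in serk1-1. PETE2, the main plastocyanin gene here, differed by 0.39 ± 0.28 (adjusted p = 0.319).

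RBCS1A had 292 and 260.3 FPKM in serk1-1 with NaCl, 370.5 and 273 FPKM in serk1-1 without NaCl, 74.6 and 82.7 FPKM in Col-0 with NaCl, and 77.05 and 62.3 FPKM in Col-0 without NaCl. The genotypes were fully apart, with a difference of 1.99 ± 0.15 (adjusted p = 8.52e-04) and a mean FPKM 4.03 times as high in serk1-1. Ranked by FPKM among all genes of a library, RBCS1A stood between 406 and 535 in serk1-1 and between 1754 and 2389 in Col-0. Another small subunit gene, RBCS3B, and the activase gene RCA were not called: RBCS3B differed by -0.13 ± 0.23 (adjusted p = 0.681) and RCA by -0.27 ± 0.18 (adjusted p = 0.285). RCA had 7.30 to 8.54 FPKM in serk1-1 libraries and 8.36 to 13.4 FPKM in Col-0 libraries.

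Taken medium by medium, the same direction was seen with fewer calls. With NaCl, LHCB4.1 (1.04 ± 0.22), PSBP1 (0.88 ± 0.18), RBCS1A (1.80 ± 0.22) and PETC (2.11 ± 0.25) were higher in serk1-1, against 2.13% of all genes, and no member was lower, against 4.14%. Of the 23 members 6 (26.1%) had an unadjusted p below 0.05 there, near the 28.1% of all tested genes. PSBP1 lost its call with median-of-ratios scaling (adjusted p = 0.0561). All 4 calls were lost when only the NaCl libraries entered the fit, when either serk1-1 library with NaCl was left out, and when replicate 1 of Col-0 with NaCl was left out. Without NaCl, RBCS1A (2.18 ± 0.22), PETC (2.09 ± 0.25), PSBP1 (1.44 ± 0.18), LHCB4.1 (1.29 ± 0.22) and PSBR (1.01 ± 0.25) were higher, against 6.00% of all genes, and none was lower, against 5.07%. Here 9 members (39.1%) had an unadjusted p below 0.05, against 30.5% of all tested genes, and the 5 calls fell to 3 without serk1-1 replicate 1, to 1 without serk1-1 replicate 2, to 1 without Col-0 replicate 1 and to 2 without Col-0 replicate 2. The median difference of the members was -0.05 with NaCl (-0.24 for all genes) and 0.36 without NaCl (-0.14 for all genes). In LHCB4.1, PSBP1, PSBR, RBCS1A and PETC all 4 serk1-1 libraries exceeded all 4 Col-0 libraries. These were 5 of 23 tested members, where 12.3% of all tested genes did so. No tested member had all serk1-1 libraries lower, as 20.4% of tested genes did.

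**Figure D3:**
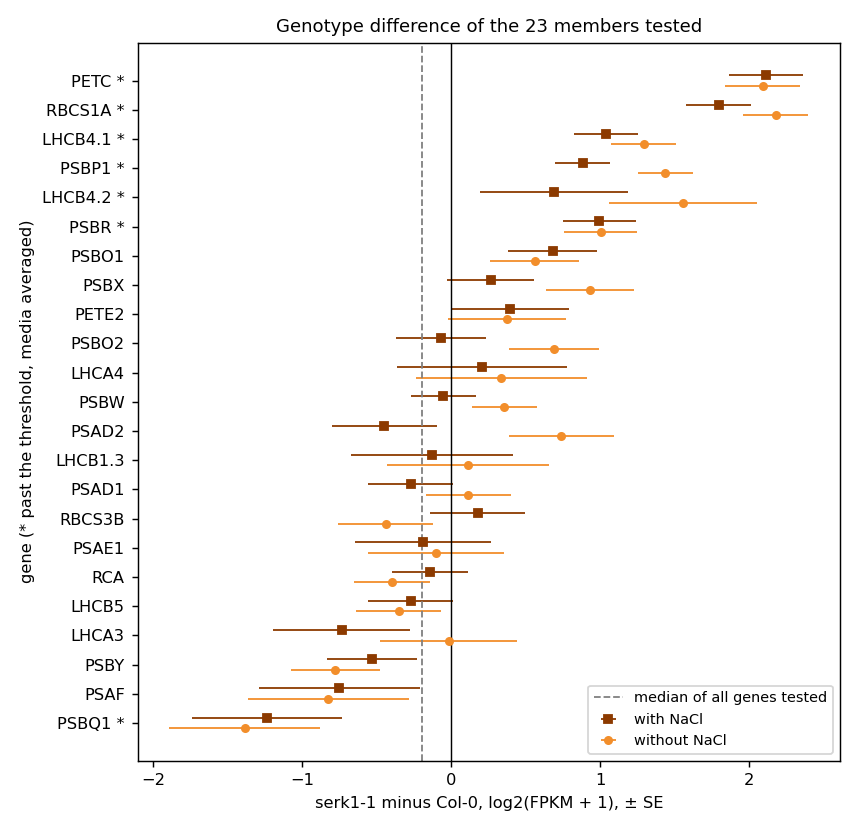
Difference between serk1-1 and Col-0 for the 23 tested members on the log2(FPKM + 1) scale, with NaCl (squares) and without NaCl (circles); bars are ± 1 SE of the fit, and asterisks mark adjusted p below 0.05 averaged over the media. PETC and RBCS1A lie near 2 on both media and PSBQ1 below -1, while the dashed line gives the median of all tested genes, -0.19.

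The comparison of media asks how seeds with 200 mM NaCl differ from seeds without it. In the limma fit of the 4 groups no member was called in serk1-1, in Col-0 or averaged over genotypes. Few genes were called at all: 0% of all tested genes in serk1-1, 0.0456% in Col-0 and 0.274% averaged. An unadjusted p below 0.05 was found for 1 member in serk1-1 (4.35%, against 4.31% of all tested genes), 5 in Col-0 (21.7%, against 11.3%) and 5 averaged (21.7%, against 15.0%). The median salt difference (NaCl minus no NaCl) of the members was -0.15 in serk1-1 and 0.11 in Col-0, beside -0.06 and 0.05 for all genes. Both signs turned on leaving out single libraries, with a range of -0.34 to 0.087 in serk1-1 and -0.019 to 0.29 in Col-0.

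RBCS3B was the single member whose libraries with and without NaCl did not overlap across the genotypes. It had 2.51 and 1.87 FPKM with NaCl and 3.09 and 3.75 FPKM without NaCl in serk1-1, and 2.52 and 1.23 FPKM with NaCl and 4.18 and 5.90 FPKM without NaCl in Col-0. All 4 libraries with NaCl lay below all 4 without, which held for 1 of 23 members and 3.23% of tested genes. The averaged difference of -0.78 ± 0.23 did not pass (adjusted p = 0.185). No member had all libraries with NaCl higher, against 2.54% of genes.

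PSAD2 differed most between the genotypes in its salt values. It had 7.72 and 6.01 FPKM with NaCl and 9.88 and 4.77 FPKM without NaCl in serk1-1, and 9.81 and 9.52 FPKM with NaCl and 4.72 and 2.94 FPKM without NaCl in Col-0. In serk1-1 the media overlapped (-0.02 ± 0.35, adjusted p = 1.00), and in Col-0 both libraries with NaCl were above both without (1.17 ± 0.35, adjusted p = 0.279). The difference between the 2 salt effects, -1.19 ± 0.50, did not pass (adjusted p = 0.9999). For all members that test gave no call with limma, as for 0% of all genes, and 1 member (4.35%) had an unadjusted p below 0.05, against 1.08% of all tested genes. PSBX had 12.1 and 9.02 FPKM with NaCl and 21.98 and 16.01 FPKM without NaCl in serk1-1, a difference of -0.79 ± 0.29 (adjusted p = 1.00), and 10.8 and 6.66 FPKM with NaCl and 10.09 and 8.69 FPKM without NaCl in Col-0. RBCS1A and PETC, which differed most by genotype, had averaged salt differences of -0.01 ± 0.15 and -0.16 ± 0.18.

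**Figure D4:**
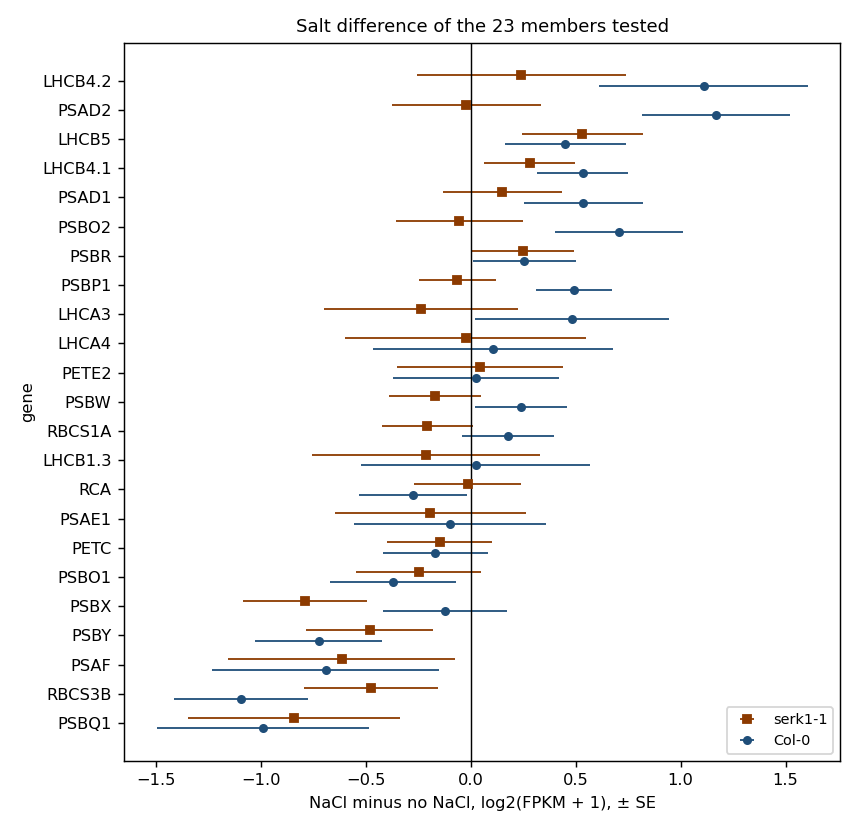
Difference between seeds with and without NaCl for the 23 tested members on the log2(FPKM + 1) scale, in serk1-1 (squares) and Col-0 (circles), with ± 1 SE of the fit. PSAD2 lies at -0.02 in serk1-1 and 1.17 in Col-0, RBCS3B lies below 0 in both, and no gene passed the threshold in either genotype.

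Related genes were read from 5 further lists for the genotype comparison averaged over media, in which 11.9% of all tested genes were higher and 18.9% lower. Of 15 tested genes of the Calvin-Benson cycle, which fixes carbon with Rubisco, 10 were higher in serk1-1 and 1 lower, with a median of 0.80. HCEF1, a plastid fructose-bisphosphatase, had 12.8 and 23.8 FPKM in serk1-1 with NaCl, 9.45 and 18.6 FPKM in serk1-1 without NaCl, 1.64 and 2.60 FPKM in Col-0 with NaCl, and 1.01 and 1.31 FPKM in Col-0 without NaCl (2.66 ± 0.29, adjusted p = 0.00188). FBA1, a plastid aldolase, differed by 1.89 ± 0.18 (adjusted p = 0.00140) and CP12-1, a regulatory linker protein of the cycle, by 1.4 ± 0.30 (adjusted p = 0.0133). The lower gene was AT3G04790, annotated as a ribose 5-phosphate isomerase (-1.23 ± 0.29, adjusted p = 0.0192).

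Among 10 tested relatives of the members, 4 were higher and none lower: PSB27, an assembly factor of photosystem II, SEP1, LHCA5 and LHCB7. PSB27 had 449.4 and 436.9 FPKM in serk1-1 with NaCl, 431 and 448.1 FPKM in serk1-1 without NaCl, 125 and 238 FPKM in Col-0 with NaCl, and 162 and 223 FPKM in Col-0 without NaCl, so that the genotypes did not overlap (1.28 ± 0.22, adjusted p = 0.00704). Of 18 tested genes of chlorophyll synthesis, 4 were higher (CHLM, CHLG, GSA1 and the geranylgeranyl reductase gene AT1G74470) and none lower, with a median of 0.05. A further 9 tested genes covered ferredoxin-side electron transport, the plastid ATP synthase and PETM, a subunit of the same cytochrome complex as PETC. None of them was higher and ATPD was lower (-1.50 ± 0.40, adjusted p = 0.0273), while 2 were higher with median-of-ratios scaling and 1 with quantile normalization.

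The list of regulators held transcription factors, sigma factors and signalling proteins that act on plastid or photosynthesis genes, among them ABI4, a factor of abscisic acid responses, the light-responsive factors HY5 and HYH, and COP1, a ubiquitin ligase that represses light responses in the dark. Of 18 tested, none was higher and 4 were lower in serk1-1: ABI4 (-1.76 ± 0.26, adjusted p = 0.00443), HYH (-0.98 ± 0.24, adjusted p = 0.0219), HY5 (-0.71 ± 0.19, adjusted p = 0.0307) and COP1 (-0.46 ± 0.14, adjusted p = 0.0444). That share of lower calls is near the 18.9% of all tested genes. ABI4 had 32.0 and 16.3 FPKM in serk1-1 with NaCl, 52.7 and 29.2 FPKM in serk1-1 without NaCl, 63.5 and 83.75 FPKM in Col-0 with NaCl, and 140.3 and 158 FPKM in Col-0 without NaCl. With median-of-ratios scaling or quantile normalization PIF5 was higher and only ABI4 and HYH were lower, so the calls on HY5 and COP1 depended on scaling. The median of the regulators, -0.25, lay near the -0.19 of all genes.

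**Figure D5:**
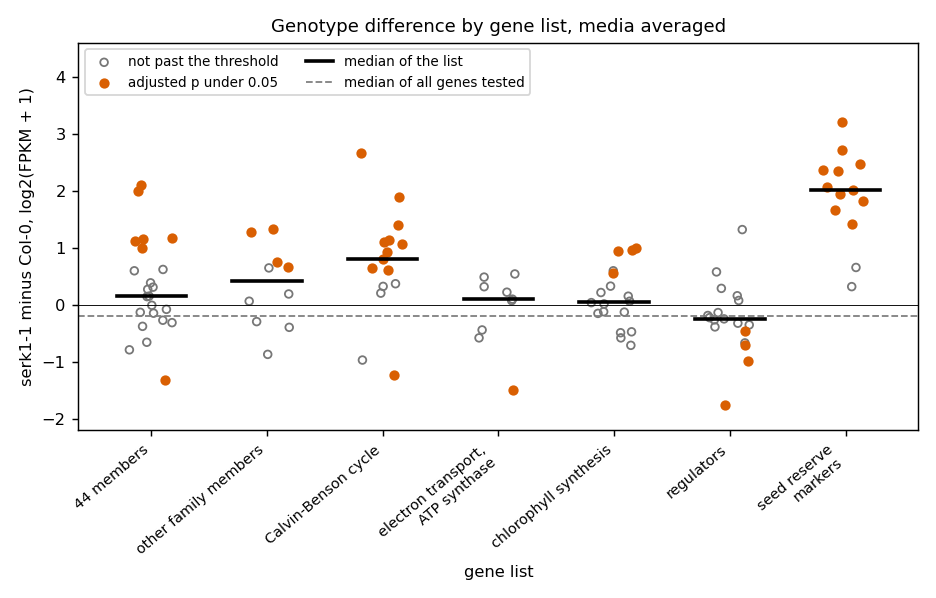
Difference between serk1-1 and Col-0 averaged over media, on the log2(FPKM + 1) scale, for the tested genes of each list; filled points passed adjusted p below 0.05, thick lines are list medians and the dashed line is the median of all genes tested. The Calvin-Benson median is 0.80, the median of the 44-gene set 0.15 over its 23 tested genes, and the seed reserve median 2.01.

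Members also differed in how the 2 replicate numbers compared. In 11 of the 23 tested members replicate 1 was above replicate 2 in all 4 groups, against 43.2% of all tested genes, and in 6 replicate 2 was above replicate 1, against 12.1%. The first kind included LHCB4.1, both tested LHCA genes, PSBQ1, PSBW, PSBX and PSBY, and the second LHCB5, PSAF, PSBO1, PSBP1, RCA and PETC. The replicate number moved with the share of seed reserve transcripts, and the part of that share in these values was not tested.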

How the data were processed

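Total RNA from whole imbibed seeds was sequenced as paired-end reads on an Illumina HiSeq2500 after TruSeq RNA library preparation, per the labels' protocols. A single table deposited by the authors gives FPKM of each gene in the 8 libraries, made with FastQC 0.10.1, TopHat2, Cufflinks 2.1.1 and build TAIR10, per the submitters' processing notes. Not given in the sources used here are the TopHat2 version, the gene annotation, whether strand was used, and how multiply mapping reads were treated. Because FPKM is a share of a library's mapped fragments, a very abundant kind of transcript depresses all other values. Depth is unknown. Low values (0.3 to 2 FPKM, ratios within 0.015 on the log2 scale) were searched for steps, but no relative depths were obtained. For some pairs of libraries too few genes shared a ratio for the search, and no cut-off for a step was set. The search therefore cannot say that steps were absent, and no counting interval is given. Exact zeros are treated as values listed at 0.

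FPKM were taken as log2(FPKM + 1), which understates changes of low genes. The 15336 genes that reached 1 FPKM in 2 or more libraries, 23 of the 44 members among them, were fitted in 1 model of the 4 groups with limma 3.58.1 in R 4.3.3, with an intensity trend and 4 residual degrees of freedom. Tests were two-sided, with Benjamini-Hochberg adjustment over all 15336 genes in each of 7 comparisons and a threshold of 0.05. With 2 libraries a group, exchanging labels cannot reach that threshold for a single gene. The procedure was tested on simulated data with 15336 genes. For the genotype comparison averaged over media, 91.0% of genes changed 2-fold and 100% of genes changed 4-fold were called. For the genotype comparison without NaCl the shares were 49.3% and 100%. The changed genes were drawn only from those at 5 FPKM or more, averaged as log2(FPKM + 1), and the changes were added on that scale. The simulated noise was independent between libraries, and its spread was set by the mean level of a gene alone. These rates therefore do not cover lower members, such as LHCB1.3 and RBCS3B, or replicate differences shared between groups. Nor do they cover members whose libraries spread more than is typical of their level.

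Statistics are given for members that were called, for the largest differences of each class, and for called or most different genes of lists of related genes and cell type markers. Members and lists were chosen with earlier results of these data known. Alternatives were another pseudocount, no filter or a stricter one, median-of-ratios scaling, quantile normalization, robust empirical Bayes, only the groups compared, a replicate block and leaving out each library. Promoters came from RefSeq on TAIR10.1, matched by locus for 44 of 44 members, and all windows were searched on both strands.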

Additional observations from a re-analysis of the deposited data

Results flagged for a closer look

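PSAE2, a stromal subunit of photosystem I, was flagged because its libraries with NaCl lay above those without in serk1-1 and below them in Col-0. This rule was used only for members too low to be fitted, and the share of all genes that meet it was not determined. In serk1-1 it had 0.40 and 0.50 FPKM with NaCl and 0.22 and 0.33 FPKM without NaCl, a mean change of 0.175 FPKM. In Col-0 it had 0.16 and 0.00 FPKM with NaCl and 0.22 and 0.33 FPKM without NaCl. All of these values are below 1 FPKM, the gene was not among those fitted, and the difference between the genotypes was not tested.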

How the results depend on the processing

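Averaged over media, RBCS1A, PETC, LHCB4.1, PSBP1 and PSBR were called higher in serk1-1 in all 16 alternatives, and the number of members called higher was 5 to 6 on leaving out single libraries. The single lower call (PSBQ1) fell to 0 with no filter and with a mean of at least 5 FPKM, where PSBQ1 was not tested, and was 0 to 1 on leaving out single libraries. The members' median of 0.15 became 0.024 with no filter, 0.35 with median-of-ratios scaling, 0.60 with a mean of at least 5 FPKM and 0.39 with quantile normalization, and ran from 0.034 to 0.37 on leaving out single libraries. With NaCl, the 4 higher calls fell to 0 with only the groups compared and ranged from 0 to 4 on leaving out single libraries. Its median became 0.40 with a mean of at least 5 FPKM, 0.20 with median-of-ratios scaling and 0.27 with quantile normalization, and ran from -0.13 to 0.38 on leaving out single libraries. Of 17 alternatives for each single medium, the call with NaCl was lost in 10 for LHCB4.1, 9 for PSBP1, 4 for RBCS1A and 4 for PETC, and the call without NaCl in 9 for PSBR, 4 for LHCB4.1, 3 for PSBP1, 2 for PETC and 0 for RBCS1A. Without NaCl, higher calls ranged from 1 to 5 and lower calls from 0 to 1 on leaving out single libraries, and the median became 0.035 with no filter and 0.93 with a mean of at least 5 FPKM and ran from 0.040 to 0.56. On leaving out single libraries the median ran from -0.34 to 0.087 for salt in serk1-1, from -0.019 to 0.29 for salt in Col-0, and from -0.49 to 0.0053 for how the salt effects differed. A left-out library leaves its group with 1, which is assumed to vary like the other groups. Scaling moved the median genotype difference of all genes, averaged over media, from -0.19 to 0.00 with median-of-ratios scaling and to -0.02 with quantile normalization. The causes of these shifts were not tested.

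Replicate numbers are shared by the groups but mark no stated pairing. Replicate differences correlated between groups at 0.397 to 0.720 over 15336 genes, and at 0.553 to 0.749 over the 23 members. With a replicate block, 8 members were higher and 3 lower averaged over media (56.6% of all genes were called in either direction), 6 higher and 1 lower with NaCl (38.3% of all genes), and 8 higher and 2 lower without NaCl (40.1% of all genes). For salt, the block gave 1 higher in Col-0 (PSAD2, with 7.18% of all genes called), and 1 higher (LHCB4.1) and 4 lower (RBCS3B, PSBQ1, PSBX and PSBY) averaged over genotypes (14.1% of all genes were called). Depth is unknown, and 21 members, 20 of them below 1 FPKM throughout, were not tested in the main fit.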
